A study of Mus musculus with 6 samples.

Results

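The genes described here are the mouse zinc finger genes whose symbol is Zfp followed by digits alone, and whose mean level over all 6 libraries was at least 5 CPM (counts scaled to a library's total). Members were thus chosen by their mean level over both ages. Of 355 such symbols among the 24091 genes of the count table, 278 met it. All 278 also had enough counts to be tested, among 13413 genes in all. Just inside the limit lay Zfp37 with a mean of 5.04 CPM and Zfp128 with 5.06 CPM, and just outside lay Zfp383 with 4.86 CPM and Zfp882 with 4.69 CPM. Near the limit a gene could pass through 1 age alone: 11 members, among them Zfp37 and Zfp108, averaged under 5 CPM in young libraries and 2 in aged ones, so for these the rule itself favours the higher age.

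The libraries held RNA of hematopoietic stem cells, the marrow cells that renew the blood, sorted as lineage-, Sca-1+, c-Kit+, CD150+ and CD48-. The study compared 3 libraries from aged mice of 20 months (aged 1, aged 2 and aged 3) with 3 from young mice of 2 months (young 4, young 5 and young 6), all tagged "wt" and with no treatment named. The aged material came from 4 mice and the young from 30. Whether each sample or each group was pooled from that many is not stated, and the replicates may not be separate animals, so p-values reflect variation among sorted pools.

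A classical Cys2His2 zinc finger folds around a zinc ion and reads a few bases of DNA, and a protein with a row of fingers can recognise a long site. Many of these proteins also carry a KRAB (Krüppel-associated box) domain, which recruits the corepressor Trim28 and with it histone H3 lysine 9 methylation, and many KRAB proteins silence retroelements. Genes of this family multiplied by local duplication, so that many of them lie side by side in clusters. The Zfp symbol is broader than this class and also covers RNA-binding, ribosome-associated and chromatin proteins.

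Reading frames of the annotated transcripts gave a KRAB box in 168 of the 278 genes and none in 109, and Zfp783 had no coding transcript. Genes with a KRAB box had a median of 12 fingers and those with none found had 7. The most fingers, 36, were found in Zfp142. Members lay on 20 chromosomes, with 74 on chromosome 7, 37 on chromosome 17 and 25 on chromosome 13. A cluster was taken as at least 3 members with at most 500 kb between neighbours. There were 25 clusters with 160 members, and the other 118 members were scattered. A KRAB box was found in 126 of the 160 clustered members (78.8%) and in 42 of the 118 scattered ones (35.6%).

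Library totals ran from 16452829 counts in young 4 to 21918658 in young 6. Young 4 stood apart: it held the highest of the 6 values in 120 of 278 members (43.2%) and the lowest in 82 (29.5%), against 35.5% and 35.3% over all genes tested. Of 10 hematopoietic stem cell markers 5 were higher in aged libraries and 1 lower, and their summed level was 2661 to 3279 CPM in aged and 1365 to 2365 CPM in young libraries. Summed macrophage and monocyte markers (8 of 9 tested) stood at 36.9 to 39.3 CPM in aged and 44.6 to 76.2 CPM in young libraries. Summed erythroid markers (5 of 7 tested) stood at 96.0 to 117 CPM in aged and 66.1 to 303 CPM in young libraries. The sum hides a split, since their log2 changes (aged minus young) ran from -2.19 to 2.48. At an unadjusted edgeR p under 0.05, 2 were higher and 2 lower, and 0 were called after adjustment. Summed neutrophil markers (3 of 7 tested) stood at 3.55 to 12.6 CPM in aged and 4.21 to 9.37 CPM in young libraries. Of 6 T cell markers 2 were tested, namely Lat at 118 to 153 CPM in aged and 135 to 188 CPM in young libraries, and Cd4, which was called lower, at 0.186 to 0.413 against 1.99 to 3.69 CPM. Cd8a had 0 counts throughout, and Cd3e and Cd3g averaged under 0.02 CPM. Of the B cell markers 2 were tested, with Cd79b at 58.0 to 85.1 against 73.2 to 133 CPM and Cd79a at 0.527 to 0.877 against 0 to 0.132 CPM, and Ms4a1 averaged 0.0176 CPM. Summed endothelial and stromal markers (7 of 8 tested, 1 called lower) stood at 112 to 147 CPM in aged and 56.0 to 155 CPM in young libraries. The part of these differences in the results for Zfp genes was not tested.

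Between ages, 2 of the 278 members were higher in aged cells and 0 were lower at an adjusted p under 0.05 (quasi-likelihood test of edgeR, Benjamini-Hochberg adjusted over all genes tested). Of all genes tested, 4.26% were higher and 1.5% lower. At an unadjusted p under 0.05, 21 members were higher and 8 lower, where the whole table had 13.9% and 11.1%. DESeq2 called 6 members higher and 4 lower, and 9.36% and 6.9% of all genes tested. The median log2 fold change (aged minus young) was 0.09 over the members and 0.04 over all genes tested, and 171 members (61.5%) had a positive value. Among the 3316 tested genes whose level lay between the lower and upper quartile of member levels, the median was 0.12 and 1989 were positive, so the members' median was not above that of genes of like level. All levels below are CPM scaled by TMM, a scaling that centres most genes. In these bulk samples, fewer cells of a type and less RNA per cell cannot be told apart.

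The gene with the smallest p was Zfp1, which has a KRAB box and 8 fingers and lies on chromosome 8 (mm10, 111643443 to 111671011, plus strand). It stood at 40.8, 41.9 and 45.0 CPM in aged 1, 2 and 3, and at 20.0, 18.8 and 16.4 CPM in young 4, 5 and 6. Every aged library lay above every young one, and the spread within each age was small beside the gap. The fitted change was 2.32-fold (log2 1.21 ± 0.165 SE, edgeR adjusted p = 0.0157).

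Zfp612, with a KRAB box and 16 fingers, lies on the same chromosome (110079734 to 110092752, plus strand). It stood at 31.5, 37.9 and 53.2 CPM in the aged libraries and at 13.8, 12.3 and 14.6 CPM in the young ones. The groups did not overlap, and the aged libraries varied more among themselves than the young. The fitted change was 3.01-fold (log2 1.59 ± 0.237 SE, edgeR adjusted p = 0.0192). Per kb of transcript, Zfp1 averaged 15.3 CPM and Zfp612 5.50 CPM over the 6 libraries. Both calls were kept without aged 1 and without young 4. They were lost without aged 2, aged 3, young 5 or young 6, where the adjusted p was 0.065 to 0.079 for Zfp1 and 0.065 to 0.0868 for Zfp612.

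**Figure D1:**
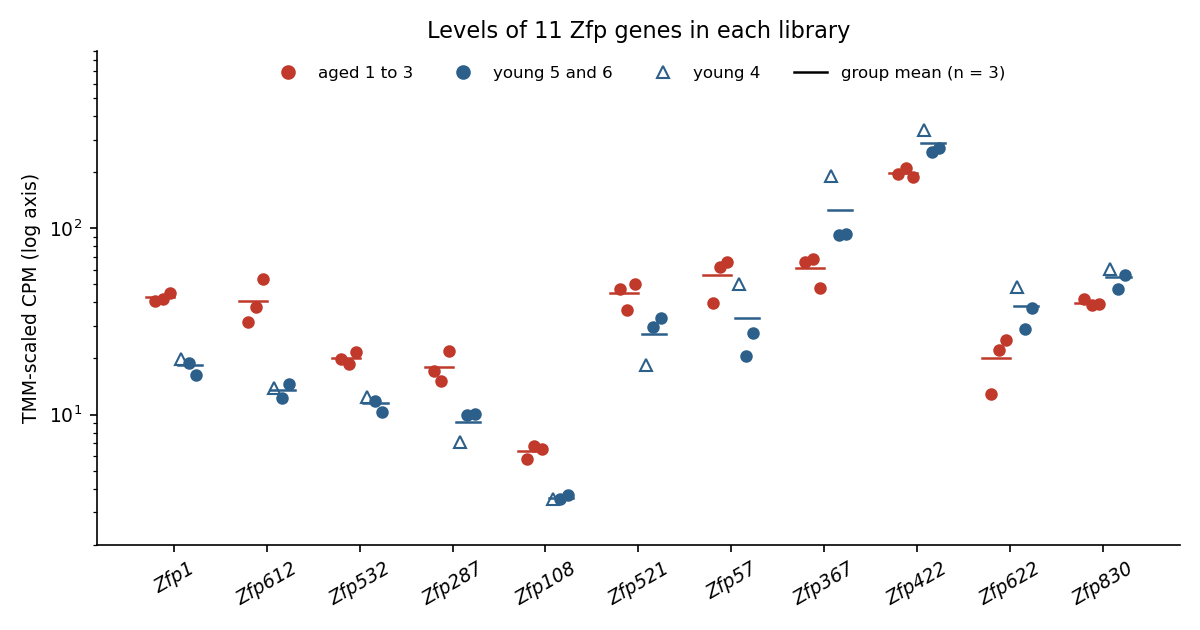
TMM-scaled CPM (log axis) of 11 Zfp genes in each library; red points are aged libraries, blue points young 5 and young 6, the open triangle young 4, and the line the mean of 3 libraries. Zfp1 and Zfp612 are separated by the widest gaps, while Zfp57 and Zfp367 show a young 4 value far from young 5 and young 6.

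Zfp1 and Zfp612 lay 1551 kb apart with 19 tested genes between them, so by the 500 kb rule neither belonged to a cluster. Next to Zfp1, Ldhd, which encodes a D-lactate dehydrogenase, starts 13.1 kb away on the opposite strand. It stood at 50.5, 22.0 and 39.3 CPM in aged and at 3.34, 3.74 and 4.95 CPM in young libraries, with no overlap. Its fitted change was 9.23-fold (edgeR adjusted p = 0.00908). Without young 5 its adjusted p was 0.0512. Znrf1, a ubiquitin ligase gene and the next on that side, stood at 40.0 to 44.7 CPM in aged and 21.8 to 23.5 CPM in young libraries (1.84-fold, adjusted p = 0.0278). Its call was lost when GC content and length trends were taken out (adjusted p = 0.217) and without aged 1, 2 or 3 or young 5 or 6. Znrf1 and Ldhd overlap on opposite strands, and since the libraries carry no strand information, reads from the shared stretch cannot be assigned to either with certainty. On the other side of Zfp1, Cfdp1 had a log2 change of -0.43 ± 0.201 and was not called. None of the 5 tested genes on either side of Zfp612 was called.

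**Figure D2:**
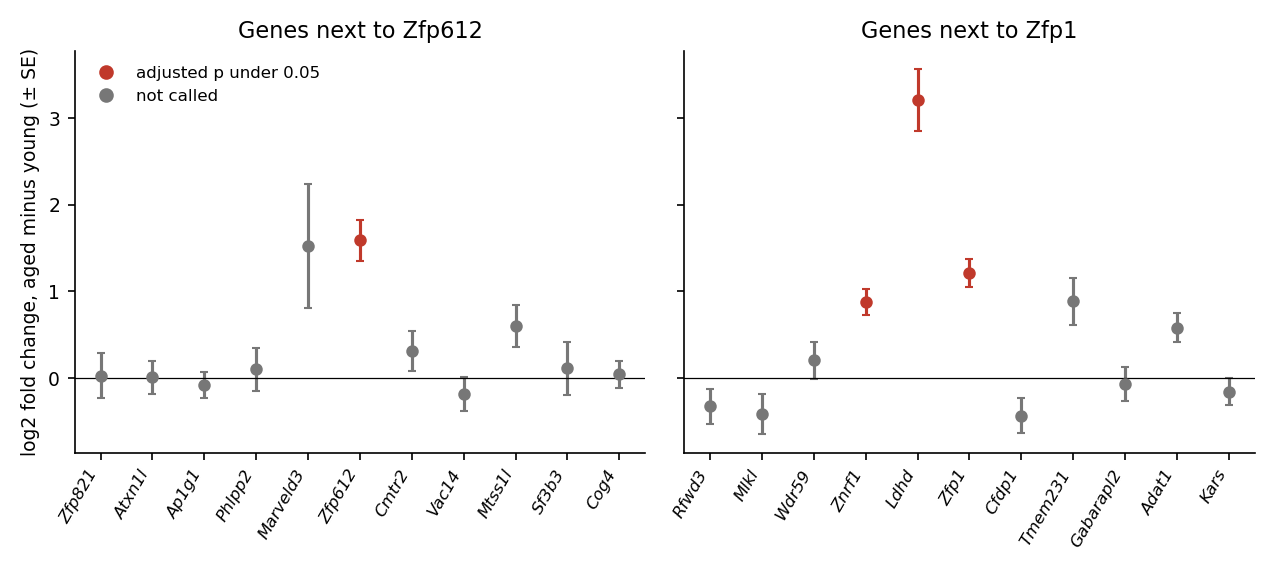
Log2 fold change (aged minus young, bars are SE from 6 libraries) of the 5 tested genes on each side of Zfp612 and of Zfp1, in chromosome order. Zfp612 is the only called gene in its panel, while Ldhd (3.21), Znrf1 (0.88) and Zfp1 (1.21) are called side by side.

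Since Zfp1 and Ldhd point away from each other and both were higher in aged cells, their RefSeq promoter windows are shown, from 250 bases before to 50 after the start (GRCm38.p6, given 5′ to 3′ on the gene's own strand). The Zfp1 window is chr8:111643193-111643492, plus strand, and the Ldhd window chr8:111630287-111630586, minus strand. Capitals mark matches on either strand to 5 words searched, namely the ETS core CCGGAA, the cyclic AMP response core TGACG, the CAAT box as CCAAT, the TATA box as TATAAA, and ACTACAA.
Zfp1: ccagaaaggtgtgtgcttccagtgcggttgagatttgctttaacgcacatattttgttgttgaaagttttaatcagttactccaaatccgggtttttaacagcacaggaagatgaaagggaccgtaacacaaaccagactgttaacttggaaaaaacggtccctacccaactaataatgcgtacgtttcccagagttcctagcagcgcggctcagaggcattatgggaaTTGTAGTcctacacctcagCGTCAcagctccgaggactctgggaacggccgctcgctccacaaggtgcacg
Ldhd: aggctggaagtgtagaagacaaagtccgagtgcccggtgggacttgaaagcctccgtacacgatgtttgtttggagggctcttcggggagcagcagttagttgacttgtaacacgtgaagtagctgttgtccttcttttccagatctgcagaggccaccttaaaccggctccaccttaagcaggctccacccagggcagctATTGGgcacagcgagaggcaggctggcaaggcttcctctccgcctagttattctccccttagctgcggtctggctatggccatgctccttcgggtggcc
The Zfp1 window holds ACTACAA and TGACG, each on the other strand, and the Ldhd window holds CCAAT on the other strand, so the pair shared none of these words. Windows of 233 members were at hand. ACTACAA was in 16 of them (6.87%) against 4.32% of 10396 tested genes, and TGACG was in 31.3% against 31.5%. CCAAT was in 49.4% of member windows against 38.9% of all, and CCGGAA in 90 of 233 (38.6%) against 2912 of 10396. TATAAA was in 6.01% against 6.82%. Member windows held a median of 14 CpG dinucleotides and all windows 20. A match describes letters and is no measured binding site.

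After the called pair, the higher members with the smallest p came just above the threshold. Zfp532, a partner of Zmynd8 in a chromatin complex, stood at 19.8, 18.8 and 21.7 CPM in aged and at 12.5, 11.9 and 10.3 CPM in young libraries. Its groups did not overlap, and its log2 change was 0.80 ± 0.187 (edgeR adjusted p = 0.0541). Without young 4 its adjusted p was 0.0433, and without any other single library it was 0.101 to 0.213 by the same test. With all 6 libraries, Zfp532 was also called by DESeq2 and by limma-voom with and without quality weights. The edgeR test called it with upper-quartile scaling and with library totals only. It was not called in the other alternatives run on all 6 libraries. The KRAB gene Zfp287 stood at 17.2, 15.2 and 21.9 CPM in aged and at 7.16, 9.96 and 10.1 CPM in young libraries, again without overlap (log2 0.99 ± 0.243, adjusted p = 0.0613 by the same test). Zfp108, another KRAB gene, passed the 5 CPM limit only through its aged libraries, so its direction is a description. It stood at 5.80, 6.76 and 6.50 CPM against 3.50, 3.54 and 3.68 CPM (log2 0.83 ± 0.218, adjusted p = 0.0728 by the same edgeR test). Zfp521, a cofactor of early blood cells and B cells, stood at 47.3, 36.5 and 50.5 CPM in aged and at 18.4, 29.3 and 33.1 CPM in young libraries. Young 4 was the lowest library for it, and its log2 change of 0.73 ± 0.258 did not pass (adjusted p = 0.143 by the same edgeR test). Zfp799, Zfp719 and Zfp689 also had groups that did not overlap, with log2 changes of 0.54, 0.50 and 0.61. Zfp37 had a log2 change of 0.81 and, like Zfp108, passed the limit only through its aged libraries.

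Among members with lower fitted values in aged cells, the smallest p belonged to Zfp367, which is on a list of cell cycle genes. It stood at 66.2, 68.8 and 47.6 CPM in aged and at 191, 92.2 and 93.5 CPM in young libraries. The groups did not overlap, and young 4 lay far above the other young libraries (log2 -1.04 ± 0.326, edgeR adjusted p = 0.107). Zfp422 stood at 196, 212 and 189 CPM in aged and at 338, 257 and 271 CPM in young libraries, with no overlap (log2 -0.54 ± 0.174, adjusted p = 0.118). Zfp622, a factor of large ribosomal subunit maturation, stood at 12.9, 22.1 and 25.1 CPM against 48.2, 28.7 and 37.3 CPM (log2 -0.92 ± 0.305, adjusted p = 0.124 by the same edgeR test). Its groups were separate by a narrow margin between aged 3 and young 5. Zfp830 stood at 41.5, 39.0 and 39.1 CPM against 60.6, 47.1 and 56.5 CPM, again separate (log2 -0.46 ± 0.160, adjusted p = 0.140). For Zfp800, Zfp704, Zfp808, Zfp934, Zfp639 and Zfp710 the log2 changes ran from -1.07 (Zfp934) to -0.38 (Zfp710) and every young library lay above every aged one.

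The members' fold changes were narrower than those of the table as a whole. The quartiles of their log2 fold changes were -0.13 and 0.35, against -0.34 and 0.46 over all genes tested. A fitted change of 2-fold or more was found in 15.2% of all genes tested. Only 4 members reached it, namely Zfp612, Zfp1, Zfp367 and Zfp934, so 274 (98.6%) stayed under. For 181 members (65.1%) the whole 95% interval lay within 2-fold in either direction, against 44.6% of all genes tested. The median SE was 0.24 for members and 0.28 for all. Members had to reach 5 CPM, while genes tested include lower ones. Over the 3316 genes of like level the quartiles were -0.21 and 0.45, 89.9% stayed under 2-fold, and 52.1% had the whole interval within 2-fold. Over the 47 tested Zfp genes under 5 CPM the quartiles were 0.02 and 0.85, and 78.7% stayed under 2-fold. Groups did not overlap with aged higher in 42 members and with aged lower in 21, beside 19.0% and 17.6% of all genes tested. This is a share of 15.1% higher and 7.55% lower among the members, each below that of the table. Over the 3316 genes of like level the shares were 19.4% and 13.2%. The 42 include Zfp37, Zfp108 and Zfp551, which passed the 5 CPM limit only through their aged libraries.

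**Figure D3:**
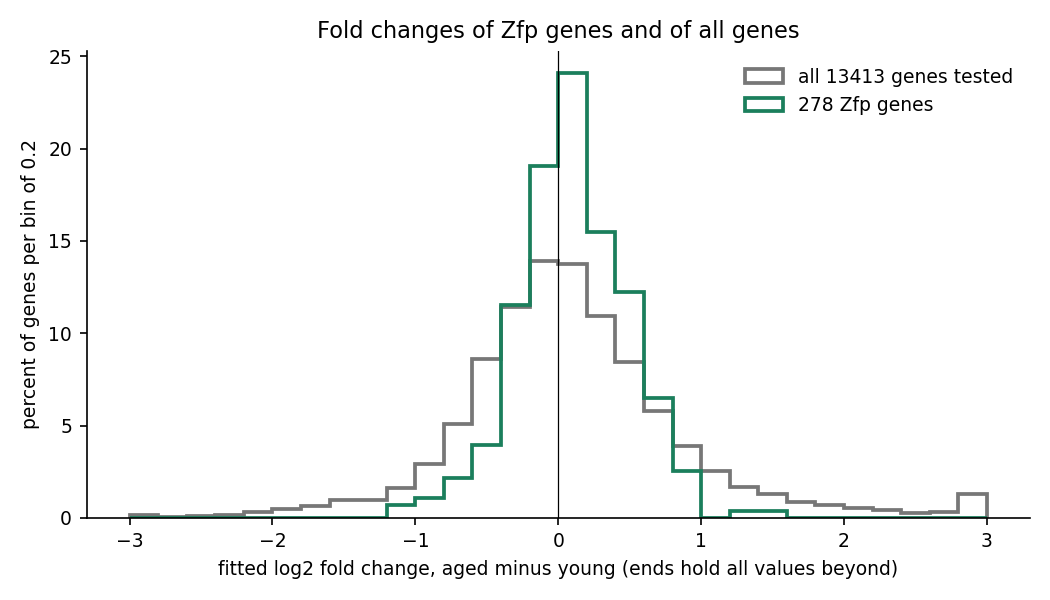
Percent of genes in each bin of 0.2 of the fitted log2 fold change (aged minus young) for the 278 Zfp genes and for all 13413 genes tested; the end bins hold all values beyond. The Zfp curve is narrower, with quartiles at -0.13 and 0.35, and both curves centre near 0.

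By role, no list of Zfp genes gave a call in the edgeR fit of all 6 libraries with TMM. Counts of calls by role below are from that fit. Among members on these lists, DESeq2 called Zfp532 higher and Zfp367, Zfp622 and Zfp830 lower, where 16.3% of all genes were called. Quality-weighted limma-voom, which called 30.5% of all genes, had Zfp57, Zfp318, Zfp521 and Zfp532 higher. It had Zfp367, Zfp568 and Zfp830 lower. The lists for RNA binding, for activators and repressors and for chromatin each include a tested gene under 5 CPM. These are Zfp593, Zfp652 and Zfp462 in that order, which are not members. With 4.26% of all genes called higher and 1.5% lower, lists of 3 to 12 genes are too short for such a count to set them apart. On the list of retroelement and imprint silencing genes, 0 of 7 passed and the median log2 change was -0.05. Zfp57, which with Trim28 keeps DNA methylation at imprinted genes, stood at 39.9, 62.1 and 65.7 CPM in aged and at 50.2, 20.6 and 27.5 CPM in young libraries. Young 4 lay inside the aged range while young 5 and young 6 lay below it (log2 0.77 ± 0.359, edgeR adjusted p = 0.229). Without young 4 the log2 change of Zfp57 was 1.19 with an adjusted p of 0.0477 by the same test. Without any other single library its adjusted p was 0.229 to 0.480. Zfp445, which shares the imprint function, stood at 134 to 145 CPM in aged libraries and at 88.4, 134 and 136 CPM in young ones, where young 4 was the low value and the other young libraries lay inside the aged range (log2 0.22 ± 0.202). Zfp809, a silencer of retroviral genomes, stood at 37.0, 39.3 and 41.2 CPM against 37.4, 33.3 and 31.6 CPM (log2 0.20 ± 0.155), so its groups overlapped slightly. Zfp568, a repressor of a placental Igf2 transcript, stood at 5.48 to 9.11 CPM against 5.41 to 9.87 CPM and overlapped broadly.

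Of 9 tested genes for RNA binding, ribosomes and translation, 0 passed. Zfp36 encodes tristetraprolin, which binds AU-rich elements and promotes mRNA decay, and it was the most variable of the abundant members. It stood at 388, 135 and 326 CPM in aged 1, 2 and 3 and at 30.8, 474 and 789 CPM in young 4, 5 and 6. The young libraries alone spanned the whole range, and the log2 change of -0.61 had an SE of 0.939. Zfp598, the ubiquitin ligase that senses collided ribosomes, stood at 9.75 to 17.7 CPM in aged and 10.4 to 12.2 CPM in young libraries, with overlap. Zfp638, Zfp106 and Zfp326 were within 0.14 of 0 on the log2 scale, with SE of 0.194, 0.139 and 0.164.

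Activators, repressors and chromatin factors also gave 0 calls, of 12 and of 9 tested. Zfp143, an activator of many promoters, stood at 33.7 to 38.7 CPM in aged and 35.9 to 37.0 CPM in young libraries (log2 -0.02 ± 0.149). Zfp410, known as an activator of the Chd4 gene, stood at 81.0 to 91.2 CPM against 86.3 to 91.5 CPM (log2 -0.03 ± 0.140). In both genes the ranges overlapped almost wholly. Zfp687 and Zfp592, which share a chromatin complex with Zfp532, had log2 changes of 0.86 ± 0.507 and -0.03 ± 0.343 and overlapping groups. Zfp687 was 3.66 CPM in young 4 and 23.6 CPM in aged 1, with 8.57 to 11.2 CPM in the other four.

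The members of highest level were Zfp36, Zfp706 and Zfp207, at 203, 151 and 136 CPM per kb. Of the 3 genes on the cell cycle and spindle list (Zfp207, Zfp367 and Zfp830) 0 passed. Zfp207, a kinetochore protein that binds Bub3, stood at 473, 723 and 619 CPM in aged and at 1179, 485 and 460 CPM in young libraries, so young 4 was far above all others and the other young libraries lay in or under the aged range. Zfp706 stood at 460, 645 and 624 CPM in aged and at 967, 640 and 662 CPM in young libraries, with young 4 again the highest. Summed over all members, levels were 9841, 10720 and 10717 CPM in aged and 13138, 9655 and 10211 CPM in young libraries. Young 4 had the highest sum, young 5 lay just under the aged range and young 6 inside it.

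No called member lay in a cluster. The largest cluster, on chromosome 17 (21008941 to 23564226), had 21 members, 20 with a KRAB box, and 9 positive values with a median log2 change of -0.05. Its extremes were Zfp948 at -0.95 and Zfp213 at 0.68. Zfp948 stood at 36.8, 62.3 and 44.1 CPM in aged and at 171, 45.9 and 60.8 CPM in young libraries, so that young 4 alone was high. The cluster on chromosome 13 (67069398 to 67827000), of 15 KRAB members, had a median of 0.04 and values from -0.46 to 0.41. The cluster on chromosome 7 at 29768552 to 30169727, with 14 members, had a median of 0.04, and the 10 members on chromosome 17 at 32765497 to 33631714 had -0.13.

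The clusters whose members all had positive values were 6 of the 25, where 52.7% of all genes tested were positive. Not all of these clusters stayed so in other fits, as given below. The largest of these lay on chromosome 7 and had 9 members each. The cluster at 127233255 to 127885996 had a median log2 change of 0.46, with Zfp747 at 0.67, Zfp689 at 0.61 and Zfp629 lowest at 0.09. The interval of Zfp689 overlaps that of Zfp553, another member, on the opposite strand. Without strand information, reads from a shared stretch cannot be assigned to either with certainty. The cluster at 24081897 to 24515682 had a median of 0.39, from Zfp108, which passed the limit through its aged libraries, at 0.83 to Zfp111 at 0.12. On chromosome 6 (47835661 to 48623227), 8 of 9 values were positive with a median of 0.38, and the exception was Zfp746, which encodes the repressor PARIS. On chromosome 13 (61804312 to 62558599), Zfp808 and Zfp934 had log2 changes of -0.84 and -1.07, and Zfp935, with 100% of its 51-base words also present in other genes, had 0.06. Zfp808 and Zfp934 shared 42.2% and 39.5% of their words with other genes, each most with the other. The interval of Zfp934 also overlaps that of Zfp935 on the same strand. Zfp934 stood at 6.33, 7.38 and 7.34 CPM in aged and at 26.6, 8.32 and 9.69 CPM in young libraries, a separation carried largely by young 4.

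**Figure D4:**
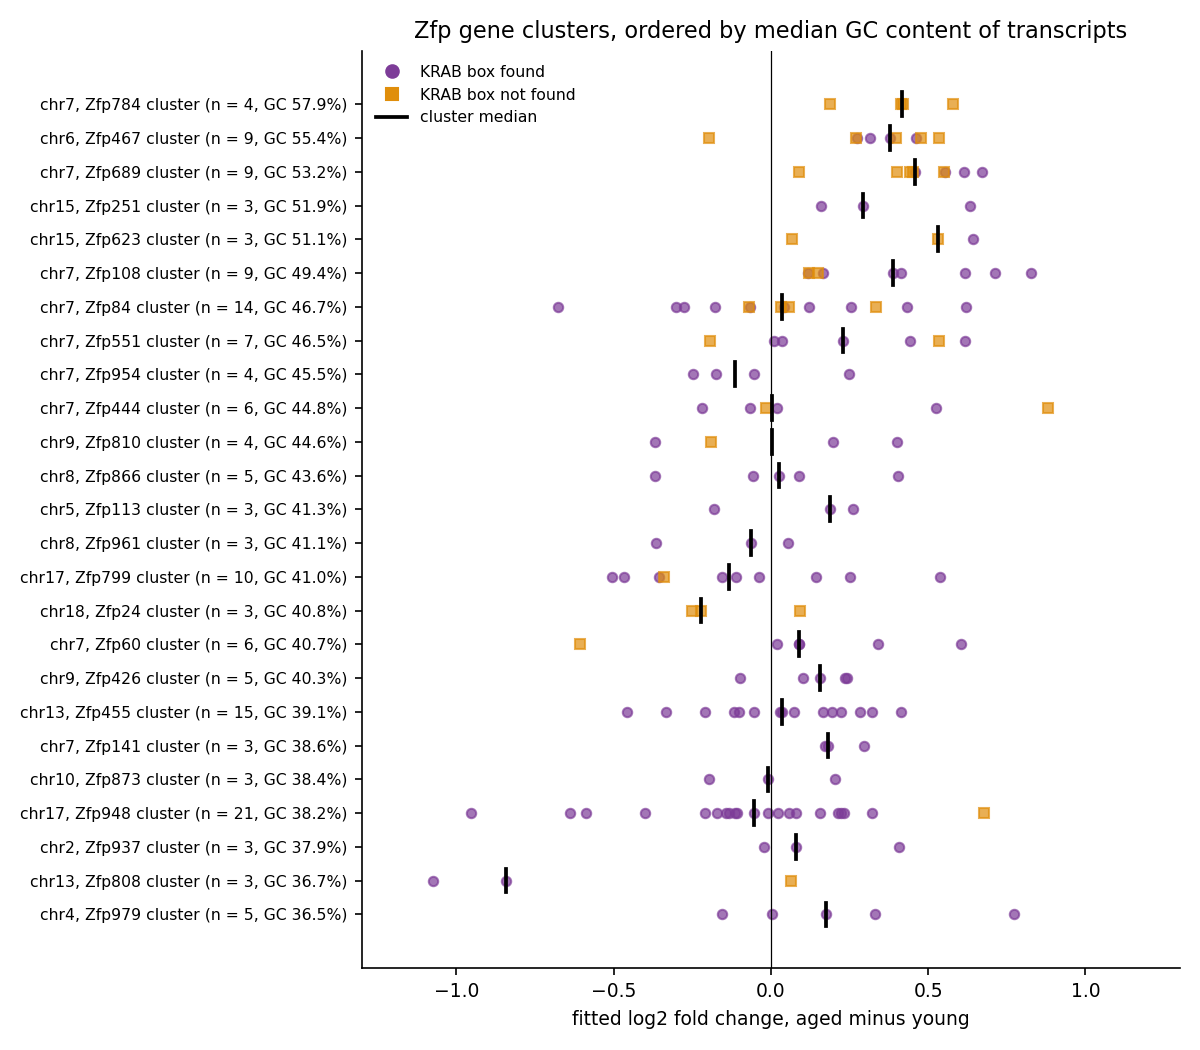
Fitted log2 fold change (aged minus young) of each member of the 25 clusters, ordered from low (bottom) to high (top) median GC content of transcripts; purple circles have a KRAB box, orange squares have none found, and the black bar is the cluster median. Clusters of high GC content lie mostly right of 0, and those of low GC content on both sides.

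Values of members and clusters differed with the GC content of transcripts and between fits with and without young 4. Over 278 members, the deviation of a library from the mean of all 6 correlated with GC content at a Pearson r of -0.61 in young 4, 0.59 in aged 1, -0.39 in aged 2, 0.13 in aged 3, 0.38 in young 5 and 0.37 in young 6. These are descriptions across genes, which are not independent replicates and share each library. The log2 fold change had an r of 0.35 with GC content, -0.06 without young 4 and -0.14 with GC content and length trends taken out. Taking out a GC trend is built to lower such a correlation. Among the 70 members with the highest GC content, 57 values were positive with a median of 0.34, and the medians were 0.18 without young 4 and -0.05 with the trends taken out. Among the 69 members with the lowest GC content the median was -0.01, and it was 0.19 and 0.12 under the same changes.

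**Figure D5:**
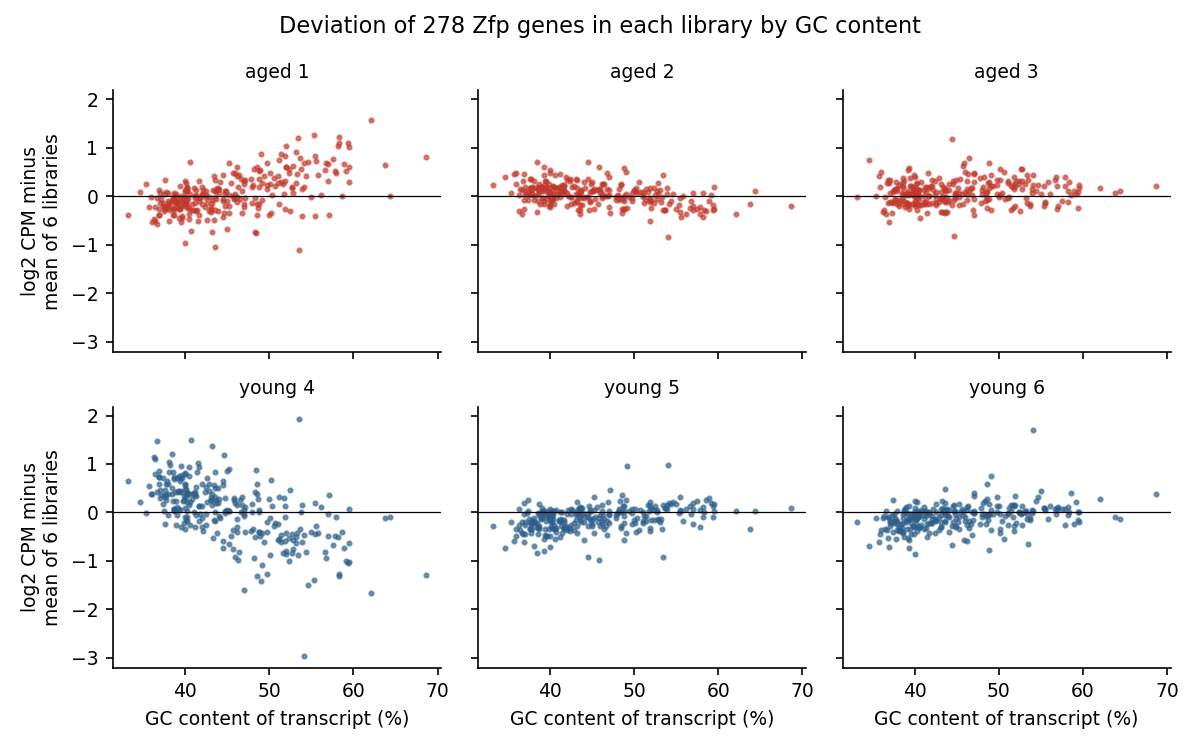
Deviation of each of 278 Zfp genes in each library (log2 CPM minus the mean of the 6 libraries) against the GC content of its longest transcript in percent. The cloud falls with GC content in young 4 (r = -0.61) and rises in aged 1 (r = 0.59), and is flatter in the other libraries.

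Cluster medians are given here in the same fits, and whether GC content or young 4 accounts for them was not tested. The chromosome 6 cluster, with a median GC content of 55.4%, went from 0.38 to 0.10 without young 4 and to -0.07 with the trends taken out. The chromosome 7 cluster near Zfp689 went from 0.46 to 0.27 and 0.23, and the one near Zfp108 from 0.39 to 0.19 and 0.22. Both medians stayed positive. Positive values then numbered 9 and 7 of 9 near Zfp689, and 7 and 6 of 9 near Zfp108. Of the other all-positive clusters, the one near Zfp784 had 4 and 2 of 4 and the one near Zfp141 3 and 3 of 3. Those near Zfp623 and Zfp251 each had 2 of 3 in both fits. The largest chromosome 17 cluster went from -0.05 to 0.20 and 0.10. The chromosome 13 cluster with Zfp808 stayed negative at -0.36 and -0.66. Medians near Zfp551 (chromosome 7) and Zfp24 (chromosome 18) changed little, from 0.23 to 0.24 and 0.22, and from -0.22 to -0.19 in both fits. In the cluster near Zfp551, Zfp551 itself and Zfp128 passed the 5 CPM limit only through their aged libraries. For these the rule itself favours the aged side. In the chromosome 4 cluster (147175866 to 147848375) the median went from 0.18 to 0.48 and 0.25. Its member Zfp979 had an edgeR adjusted p of 0.184 with all 6 libraries, 0.0372 without young 4 and 0.0205 with the trends taken out. Without any other single library that value was 0.208 to 0.450.

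The likeness of adjacent members was compared between close and distant pairs. For 144 pairs of adjacent members at most 500 kb apart, the Pearson r of their log2 changes was 0.24 (Spearman rho 0.26) and 63.2% had the same sign. For 114 adjacent pairs farther apart, r was 0.23 (rho 0.16) and 62.3% had the same sign. Without young 4, r was 0.21 for close and 0.17 for distant pairs, with the same sign in 69.4% and 58.8%. With GC content and length trends taken out, r was 0.09 and 0.16, with the same sign in 59.0% and 58.8%, so which pairs were more alike depended on the measure and the fit. Both are descriptions across pairs that share members and libraries.

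By protein class, members with a KRAB box found and those with none found had the same median log2 change of 0.09. A box scoring under the limit of 14 matches is not counted, and Zfp746 scored 13. The second class can therefore include KRAB genes. The 2 calls were both KRAB genes, of 168, against 0 of 109 with none found. Groups did not overlap in 29 KRAB members (17.3%) with aged higher and in 5 (2.98%) with aged lower. With no KRAB box found these were 12 of 109 and 16 of 109 (14.7%), and over all genes tested 19.0% and 17.6%. Without young 4, the medians were 0.20 (132 of 168 positive) and 0.06 (65 of 109 positive). With the GC and length trends taken out they were 0.13 and -0.08. The difference between the classes was not tested, and median GC content differed between them, at 41.3% with a box found and 48.8% with none found.

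Genes of the machinery that KRAB proteins recruit were set beside them. Of 33 listed cofactors and silencing genes, 31 were tested, 0 were higher and 1 was lower, with a median log2 change of -0.41. The lower gene was Hells, a remodeller needed for DNA methylation, at 75.4, 90.2 and 58.0 CPM in aged and 297, 163 and 145 CPM in young libraries (0.37-fold, edgeR adjusted p = 0.0476). That call was lost with a filter of at least 5 CPM in 3 libraries (adjusted p = 0.0592) and without aged 1, 2 or 3 or young 5 or 6 (0.0828 to 0.181), and kept without young 4. Trim28 stood at 102, 109 and 92.3 CPM in aged and at 171, 154 and 145 CPM in young libraries. Its groups did not overlap, and its log2 change of -0.63 ± 0.154 missed the threshold (adjusted p = 0.0613 by the same test). Without young 4 the adjusted p of Trim28 was 0.0420, and without any other single library it was 0.120 to 0.261 by the same test. At an unadjusted p under 0.05, 12 of the 31 (38.7%) were lower and 0 higher, beside 11.1% and 13.9% of all genes tested. The groups did not overlap with aged lower in 11 (35.5%), beside 17.6%.

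Part of the members share sequence with other genes, which bears on how reads were assigned. Words of 51 bases, the read length, were shared with another gene's transcripts for at least 10% of a member's words in 71 members, and 91 members shared none. Zfp1 shared 0.691% and Zfp612 0%. Among other members described above, Zfp784 shared 94.7%, all of it with Zfp865, which is also a member. Reads from those stretches cannot be assigned to either with certainty. Zfp532 shared 36.7%, Zfp106 25.2%, Zfp979 24.3%, Zfp422 19.9%, Zfp704 18.2%, Zfp367 15.9%, Zfp689 12.8%, and Zfp141 and Zfp108 11.5% each. Zfp287, Zfp622 and Zfp830 shared 0%. Intervals of 44 members overlapped another gene, 25 of them on the opposite strand. Over the 187 members free of either, 2 were called higher and 0 lower, with a median of 0.08.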

How the data were processed

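Total RNA was amplified with the SMART-Seq v4 kit, which keeps no strand, and read singly for 51 cycles, per the labels. STAR 2.6.0, HTSeq 0.11.1, Trimmomatic and edgeR are named with build mm10 per the submitters' processing notes. How reads were counted, and on which annotation, is not given in the sources used here. In 1 table, the authors deposited unscaled whole-number counts per gene.

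Here edgeR 4.0.16 in R 4.3.3 (filterByExpr, TMM, glmQLFit, glmQLFTest) was fitted to all 6 libraries with age as the only term, and p-values were adjusted over 13413 genes. The fit was tested on simulated counts that held no GC trend and no outlying library, so that test does not cover either feature. Where a count is 0, up to 3 counts (0.132 to 0.239 CPM) are allowed by counting error alone. Alternatives were other scalings and filters, DESeq2 1.42.0, voom of limma 3.58.1, thinning, libraries left out, and GC content and length trends taken out (4-df splines, GENCODE M21 longest transcripts, 98.0% of tested genes matched). GC content alone and length alone were chosen after seeing the data.

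KRAB boxes were called in the longest reading frame of GENCODE transcripts from at least 14 matches over 27 typical positions, and fingers from the spacing of cysteines and histidines. Gene rows with intervals over 1000 times their length, 48 in all, were not used as overlap partners. Promoters are from RefSeq.

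The members and lists were chosen with earlier results of these data known. Named genes are called members, the 10 higher and 10 lower members of smallest p, the 5 of highest level, the smallest p per cluster, members on role lists, called cofactors and the genes at the 5 CPM limit. Neighbours of the called genes, Trim28 and further members of clusters were named after their values were seen.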

Additional observations from a re-analysis of the deposited data

How the results depend on the processing

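The higher calls of Zfp1 and Zfp612 were kept in each scaling, filter, tool, thinning and GC or length alternative run, with folds from 2.19 to 2.62 for Zfp1 and 2.65 to 3.37 for Zfp612. The number of members called higher and lower was 6 and 4 with DESeq2 (10 in all), 4 and 3 with GC content and length trends taken out (7 in all), 5 and 0 with GC content alone, 46 and 6 with quality-weighted limma-voom (52 in all) and 2 and 1 with length alone. Of all genes tested, 16.3%, 10.4%, 8.66%, 30.5% and 6.81% were called in the same order. In the same order, clustered members called were 2, 1, 1, 30 and 0, and called members with a KRAB box were 5, 4, 4, 42 and 2. With one library left out, members called ran from 0 to 6 (higher 0 to 5, lower 0 to 1, clustered 0 to 2, with a KRAB box 0 to 5), where 0.539% (without young 5) to 7.47% (without young 4) of all genes were called, and the median log2 change from 0.05 to 0.17. Without young 4 and aged 2 there was 1 call, Zfp1, higher, and 4.81% of all genes. The median log2 change was -0.090 with the length trend taken out and 0.28 with library totals only, where the medians of all genes were -0.10 and 0.20. Of 73 named members, 17 changed sign in at least 1 of 20 settings, and no called change reversed. No paired analysis was possible because the aged and young libraries share no replicate number. In place of near-identical proteins, shared 51-base words were used, since no protein table was used here. At 3 libraries per age, changes near 2-fold can be missed.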

Other observations

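Of the 77 Zfp symbols under 5 CPM, 47 were tested and 2 were higher in aged cells, a share of 4.26% that equals the 4.26% of all genes tested. Zfp13, on chromosome 17, stood at 2.49, 1.60 and 2.46 CPM in aged and at 0.239, 0.349 and 0.351 CPM in young libraries, where 0.239 CPM in young 4 is the level of 3 counts (log2 2.75 ± 0.390, edgeR adjusted p = 0.0167). Zfp334, on chromosome 2, stood at 3.45, 3.41 and 5.06 CPM in aged and at 1.19, 0.698 and 0.789 CPM in young libraries (log2 2.17 ± 0.350, adjusted p = 0.0231 by the same test). In both genes every aged library lay above every young one. Among related zinc finger families, 1 of 10 tested Zkscan genes was called higher, all 10 had positive values, and the groups did not overlap with aged higher in 7, beside 19.0% of all genes tested. Of 9 Zscan genes 0 were called, of 35 Zbtb genes 1 was higher and 0 lower, and of 14 Klf genes 0 were higher and 2 lower, where the whole table had 4.26% higher and 1.5% lower.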
